A study of Homo sapiens with 9 samples.

Results

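The comparison described here is the early response of Jurkat cells to activation: 3 small RNA libraries made 5 h after the start of activation against 3 libraries of cells that were not activated (0 h). These are 6 of the 9 libraries of the study, whose other 3 were made at 12 h. Of the 2883 table rows, which pair a precursor with a mature microRNA (miRNA), each of the 2654 mature miRNAs was taken once, as its precursor row with the highest total count. Among these, 1023 had a count in the 6 libraries and 629 had enough counts to be tested.

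All cells were Jurkat clone E6-1, an established human leukaemic T lymphoblast line grown from 1 clone, so the replicates share a genotype. For the 5 h group, plates carried bound anti-CD3 antibody (10 µg/mL), which engages the T cell receptor complex, and soluble anti-CD28 antibody (5 µg/mL), which engages a costimulatory receptor. The 0 h group had neither antibody and serves as the background for every value. Each group had 3 replicates, described by the submitters as biological. No cells kept for 5 h without antibody were included, so activation and 5 h of culture on the plate cannot be told apart.

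A miRNA is cut from a hairpin precursor by Drosha and then Dicer, and either arm of the hairpin (5p or 3p) can be loaded into an Argonaute protein. The loaded strand recognises mRNAs mainly through its seed, bases 2 to 8 from the 5′ end, so miRNAs with the same seed share target sites. In T cells, receptor and CD28 signals reach the factors CREB, AP-1 and NF-kB, which drive several miRNA genes.

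The sequences below belong to the miRNAs that changed and to those that share a seed with them, and are shown so that the shared seeds can be read directly. They are from RefSeq (GRCh38.p14), written 5′ to 3′ with the seed in capitals, and 2365 of the 2654 mature names had a sequence there. miR-21-3p, which also changed, had none, so it is not printed and entered no seed family.
miR-132-3p: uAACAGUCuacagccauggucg
miR-212-3p: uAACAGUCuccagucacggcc
miR-132-5p: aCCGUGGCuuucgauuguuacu
miR-212-5p: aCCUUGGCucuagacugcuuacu
miR-21-5p: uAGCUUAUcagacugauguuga
miR-590-5p: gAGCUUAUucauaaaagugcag
miR-146a-5p: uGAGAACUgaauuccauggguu
miR-146b-5p: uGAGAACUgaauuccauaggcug
miR-222-3p: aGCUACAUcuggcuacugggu
miR-221-3p: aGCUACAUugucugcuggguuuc
miR-222-5p: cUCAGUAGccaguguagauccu
miR-92a-1-5p: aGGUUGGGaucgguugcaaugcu
miR-4521: gCUAAGGAaguccugugcucag
miR-132-3p and miR-212-3p have the same seed, whereas the seeds of their 5p arms differ. The pairs miR-21-5p and miR-590-5p, miR-146a-5p and miR-146b-5p, and miR-222-3p and miR-221-3p each share a seed although each member comes from a hairpin of its own.

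By 5 h of activation few miRNAs passed the test, and nearly all of those rose. In edgeR's quasi-likelihood test with Benjamini-Hochberg adjustment, 11 of the 629 tested miRNAs (1.75%) had an adjusted p under 0.05: 10 were higher (1.59%) and 1 was lower (0.159%) at 5 h. Those that rose were both arms of miR-132, of miR-212, of miR-21 and of miR-222, together with miR-146a-5p and miR-92a-1-5p, and the miRNA that fell was miR-4521. Over all tested miRNAs the median log2 change was -0.00026. The 3 libraries of each group did not overlap in 68 of the 629 (10.8%), of which 41 were higher (6.52%) and 27 lower (4.29%) at 5 h. With 3 against 3 libraries the smallest exact permutation p is 0.1, so a share of 10.8% is near what unrelated labels would give. At an unadjusted edgeR p under 0.05 there were 42 of the 629 miRNAs, 21 in each direction.

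Library depth, with each mature miRNA counted once, ran from 4481571 to 9764870 counts at 0 h and from 6405769 to 10450005 at 5 h. Levels are counts per 1000000 counts, scaled by TMM (CPM), so a level is a share of the miRNA pool, and more RNA per cell cannot be told apart from more cells with the RNA. By library totals alone, without TMM factors, a count of 3 equals 0.287 to 0.669 CPM. In a principal component analysis of miRNAs at 10 CPM or more, the first component (47.0% of the variance) put the 0 h libraries between -7.35 and -3.27 and the 5 h libraries between 4.19 and 6.50.

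**Figure D1:**
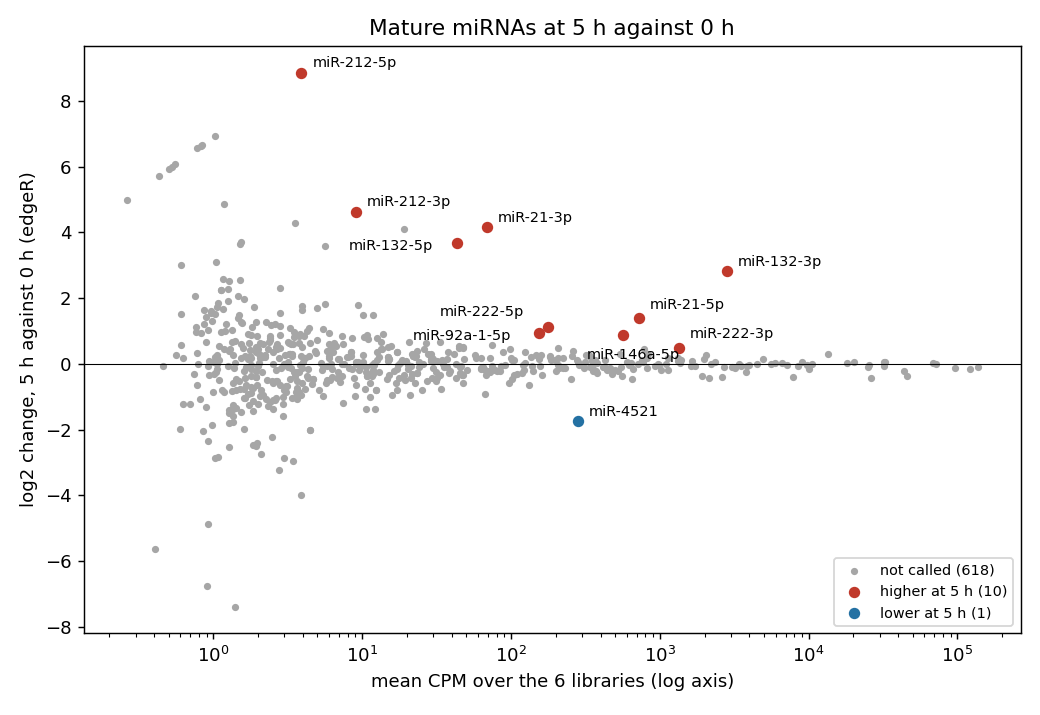
Each point is a tested mature miRNA, with its mean CPM over the 6 libraries on a log axis and its log2 change at 5 h against 0 h on the vertical axis. The 10 called higher (red) and the 1 called lower (blue) stand out from a band that narrows with rising abundance; the value of miR-212-5p depends on the prior count, since its 0 h counts were 0.

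The cluster of miR-132 and miR-212, hairpins transcribed together and known as CREB targets in neurons, gave the largest changes among the called miRNAs, together with miR-21-3p. Its hairpins lie on the minus strand of chromosome 17, MIR132 at chr17:2049908-2050008 and MIR212 at chr17:2050271-2050380 (GRCh38.p14), with 262 bases between them. Neither lies within another annotated gene in the annotation used here. The RefSeq hairpins are printed with both mature arms in capitals, the 5p arm first, because all 4 arms were measured and all 4 rose.
MIR132: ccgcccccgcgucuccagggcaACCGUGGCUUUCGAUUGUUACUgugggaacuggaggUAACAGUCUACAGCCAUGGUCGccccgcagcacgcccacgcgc
MIR212: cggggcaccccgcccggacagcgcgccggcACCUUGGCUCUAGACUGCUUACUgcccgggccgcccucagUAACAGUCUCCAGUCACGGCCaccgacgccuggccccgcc

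miR-132-3p, the main product of the cluster, measured 769, 644 and 669 CPM in the 0 h replicates and 5095, 4351 and 5309 CPM at 5 h. Every 5 h library was several times above every 0 h library. The rise was 7.09-fold (log2 change 2.83, SE 0.12, n = 3, edgeR adjusted p = 1.31e-12), which took the miRNA from rank 67 to rank 28 in abundance among those tested. Its share of all counts went from 0.0678% ± 0.00873 to 0.507% ± 0.0637 (SD, n = 3).

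The opposite arm, miR-132-5p, was scarce in resting cells, with 6, 116 and 18 counts, or 0.608, 13.6 and 4.38 CPM, and reached 85.8, 77.2 and 79.1 CPM at 5 h. The 0 h libraries spread over more than an order of magnitude, but none came near the 5 h libraries. The log2 change was 3.69 (SE 0.59, edgeR adjusted p = 0.00063). It rested partly on replicate 2 of 0 h: without that library the log2 change was 5.21.

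miR-212 was scarcer than miR-132 on both arms. miR-212-3p had 1.82, 0 and 0 CPM at 0 h, from 18, 0 and 0 counts, and 20.1, 15.2 and 17.2 CPM at 5 h, from 141, 97 and 187 counts. The groups were well apart, with a log2 change of 4.63 (SE 0.90, edgeR adjusted p = 0.00464). Without replicate 1 of 0 h no 0 h count was left, and the 5 h level was then at least 73.6-fold higher than 3 counts over the remaining 0 h libraries. Without replicate 2 of 0 h the log2 change was 4.03.

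miR-212-5p had no count at 0 h and 106, 16 and 63 counts at 5 h, or 15.1, 2.50 and 5.79 CPM. It was present in each 5 h library, with replicate 1 the highest. Against 3 counts over the 0 h group (0.133 CPM) the 5 h mean was at least 58.5-fold higher (edgeR adjusted p = 0.00111). This bound was 31.1-fold without replicate 1 of 5 h, 32.8-fold without replicate 1 of 0 h and 36.4-fold without replicate 2 of 0 h.

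**Figure D2:**
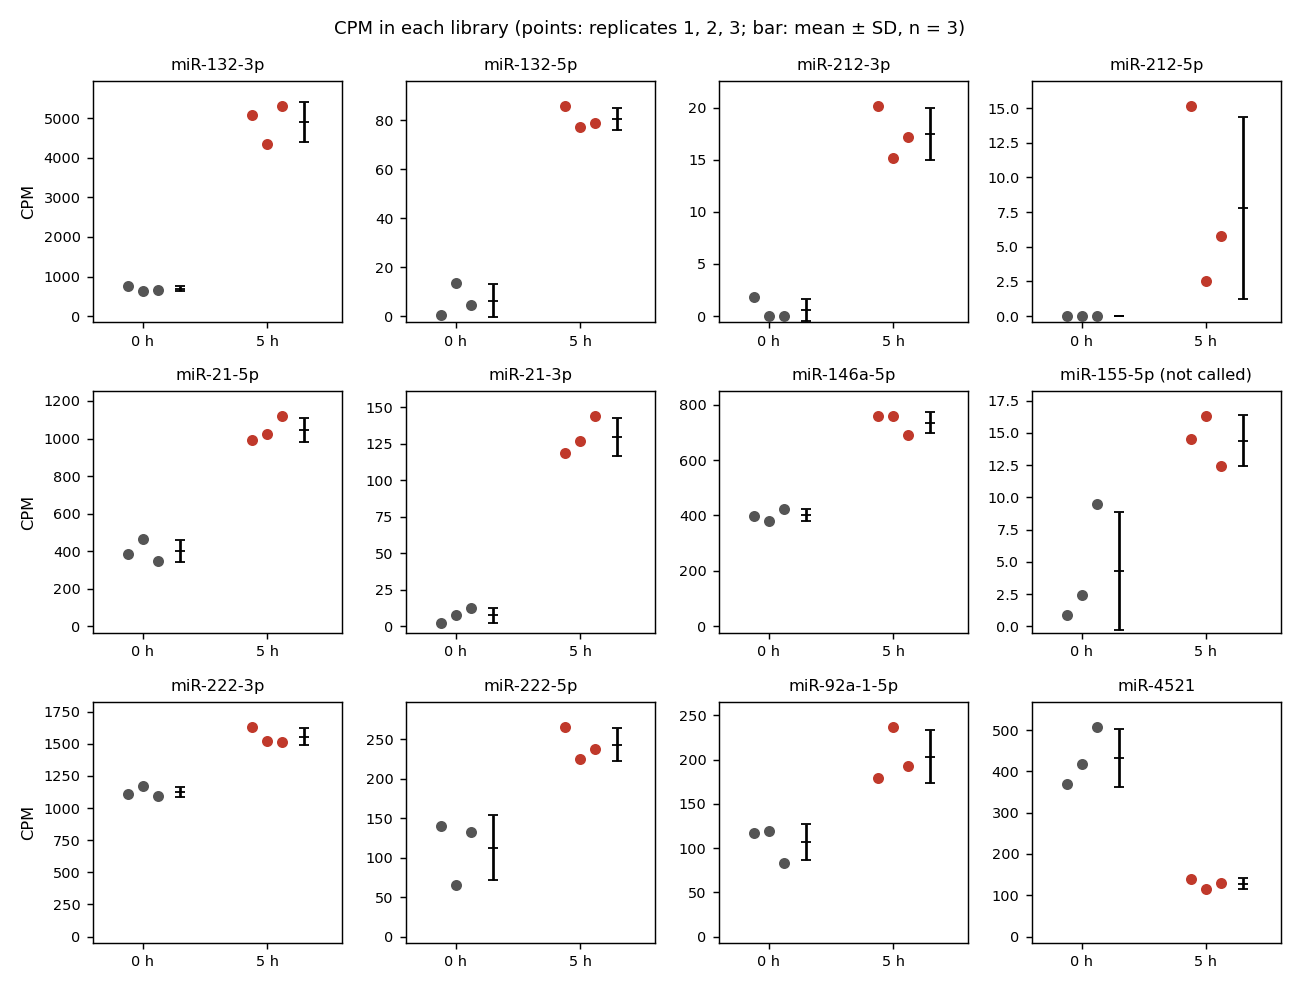
CPM in each 0 h library (grey points) and 5 h library (red points) for the 11 called miRNAs and miR-155-5p, with the mean and SD of 3 libraries as a bar beside them. The groups do not overlap in any panel; for miR-155-5p, which was not called, replicate 3 of 0 h (9.50 CPM) comes close to the 5 h libraries.

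miR-21, whose gene responds to AP-1 and STAT3, rose on both arms. Its hairpin lies at chr17:59841266-59841337 on the plus strand, inside the gene VMP1, in an exon of 1 annotated VMP1 transcript. miR-21-5p measured 386, 465 and 349 CPM at 0 h and 994, 1024 and 1118 CPM at 5 h. The lowest 5 h library was above the highest 0 h library by far more than the spread within either group, and the rise was 2.61-fold (log2 change 1.39, SE 0.14, edgeR adjusted p = 1.93e-06).

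The usually discarded arm, miR-21-3p, rose more steeply. It had 24, 65 and 52 counts at 0 h, or 2.43, 7.63 and 12.7 CPM, and 830, 811 and 1564 counts at 5 h, or 118, 127 and 144 CPM. The 5 h libraries agreed closely and all stood far above the 0 h libraries. The log2 change was 4.15 (SE 0.43, edgeR adjusted p = 1.93e-06), and the miRNA moved from rank 302 to rank 129.

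miR-146a-5p, an NF-kB target that represses the adaptors TRAF6 and IRAK1, is cut from a hairpin at chr5:160485352-160485450, in an exon of the long noncoding RNA gene MIR3142HG. It measured 398, 380.4 and 424 CPM at 0 h and 757, 757 and 691 CPM at 5 h. Replicates were tight in both groups, and the change was 1.83-fold (log2 change 0.88, SE 0.13, edgeR adjusted p = 0.00019). miR-146a-3p had no count in any of the 6 libraries.

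The other miRNAs linked to NF-kB did not pass the test. Of the 9 on that list 6 were tested, 1 was called higher (1.59% of all tested were) and the median log2 change was 0.31. miR-146b-5p, which shares the seed of miR-146a-5p but comes from another chromosome, had a log2 change of 0.22 (SE 0.19) and overlapping groups. miR-9-5p, better known from neurons, measured 211, 251 and 218 CPM at 0 h and 285, 291 and 312 CPM at 5 h, a log2 change of 0.39 (SE 0.18) without overlap of the groups and without a call.

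miR-155-5p, cut from the noncoding RNA BIC and among the best known miRNAs of activated lymphocytes, stayed scarce in these cells. It had 9, 21 and 39 counts before and 102, 104 and 135 counts after 5 h of activation, or 0.912, 2.47 and 9.50 CPM against 14.6, 16.3 and 12.4 CPM. The groups did not overlap, yet the 0 h libraries spread widely and the log2 change of 1.80 (SE 0.67) was not called (edgeR adjusted p = 0.503). Without replicate 3 of 0 h, the shallowest of the 6 libraries and the highest 0 h value, it was 3.09 and called (adjusted p = 0.0103; range over all alternatives 0.0103 to 0.886).

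miR-221 and miR-222, neighbouring hairpins on the minus strand of chromosome X within introns of the noncoding RNA gene MIR222HG, repress the cell cycle inhibitor p27. MIR222 lies at chrX:45747015-45747124 and MIR221 at chrX:45746157-45746266. All 4 arms were tested and in all 4 the groups did not overlap, with higher values at 5 h (6.52% of all tested did so). Of these, 2 were called higher, both from miR-222 (1.59% of all tested were), and the median log2 change was 0.79. The 4 arms come from neighbouring hairpins in the same host gene, so they are not independent results.

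miR-222-3p measured 1109, 1174 and 1093 CPM at 0 h and 1633, 1521 and 1514 CPM at 5 h. The rise of 1.38-fold was the smallest among the called miRNAs (log2 change 0.47, SE 0.11, edgeR adjusted p = 0.0282). Within each group the libraries lay close together, but the call was lost when any of 5 of the 6 libraries was left out, namely replicate 1 or 3 of 0 h or any replicate of 5 h (adjusted p between 0.0888 and 0.146). miR-221-3p measured 645, 741 and 596 CPM at 0 h and 978, 823 and 887 CPM at 5 h, with a log2 change of 0.44 (SE 0.14) that was not called (adjusted p = 0.222).

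The 5p arms gave larger and noisier values. miR-222-5p went from 141, 65.0 and 132 CPM to 266, 226 and 238 CPM, with replicate 2 of 0 h the lowest library. The log2 change was 1.11 (SE 0.25, edgeR adjusted p = 0.0209), and without that library it was 0.82 and no longer called (adjusted p = 0.0563). miR-221-5p, at 6.08, 8.34 and 4.14 CPM against 13.6, 20.2 and 18.8 CPM, had a log2 change of 1.49 (SE 0.59) and was not called.

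miR-92a-1-5p was the only called miRNA of the growth-promoting miR-17/92a-1 cluster. Its hairpin, at chr13:91351314-91351391 on the plus strand, lies in the host gene MIR17HG, in an exon of 2 of the 3 transcripts that span it. It measured 118, 119 and 83.1 CPM at 0 h and 179, 237 and 193 CPM at 5 h, without overlap. The log2 change was 0.93 (SE 0.21, edgeR adjusted p = 0.0175). Leaving out replicate 3 of 0 h ended the call, with a log2 change of 0.80 (adjusted p = 0.0843). Leaving out replicate 2 of 5 h did so too, at 0.83 (adjusted p = 0.131).

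The rest of that cluster, transcribed as the same primary RNA, was not called. Of its 11 tested members 1 was called higher (1.59% of all tested were), and the median log2 change was 0.02. miR-17-5p measured 19512, 20210.1 and 19847 CPM at 0 h and 19948, 21341 and 20376 CPM at 5 h (log2 change 0.05, 95% interval -0.14 to 0.24). miR-20a-5p (0.02), miR-18a-5p (-0.03) and miR-19b-3p (0.00) gave log2 changes as small. The arm opposite miR-92a-1-5p, miR-92a-3p, had a log2 change of 0.29 (SE 0.15), with groups that overlapped. It is also an arm of mir-92a-2, in the cluster of miR-106a and miR-363, so its level does not report on this cluster alone. The same holds for miR-19b-3p, which is also an arm of mir-19b-2 in that other cluster. miR-17-3p, the rarer arm of miR-17, was lower at 5 h without overlap, at 482, 486 and 481 CPM against 690.3, 517 and 666 CPM (log2 change -0.37, 95% interval -0.74 to -0.01, edgeR adjusted p = 0.734).

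miR-4521 was the only miRNA called lower. In all, 27 tested miRNAs (4.29%) had every 5 h library below every 0 h library. It is annotated at chr17:8186945-8187004 on the plus strand and has been described as a fragment of a precursor tRNA rather than a product of Drosha and Dicer. Its level was 369, 418 and 508 CPM at 0 h and 139.7, 115 and 129.9 CPM at 5 h. All 5 h libraries were below all 0 h libraries, at 0.297 of the 0 h level (log2 change -1.75, SE 0.18, edgeR adjusted p = 2.16e-06).

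Other entries that match structured RNAs were checked beside it, since they can report on RNA breakdown. The table holds 14 such entries. Of these, 5 were tested and 1 was called lower (0.159% of all tested were). That call is miR-4521 itself, so it is not a further result. The median log2 change was -0.47. miR-1246, which matches the small nuclear RNA U2, measured 743, 525 and 989 CPM at 0 h and 598, 496 and 532 CPM at 5 h, and was not called. miR-4454, which matches a tRNA, had a log2 change of -0.14 (SE 0.25). Without miR-4521 the summed level of the list ran from 584 to 1080.5 CPM at 0 h and from 553 to 659 CPM at 5 h, which overlap, and the median log2 change over the other 4 tested was -0.31. The part of these RNAs in the result for miR-4521 was not tested.

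Summing counts over miRNAs with the same seed shows how much each targeting sequence changed. Of 475 seed families tested in the same way, 9 were called (1.89%), 8 higher (1.68%) and 1 lower (0.211%). Family CPM carry scaling factors of their own, so they do not add up to the CPM of the members. The AACAGUC family, made of miR-132-3p and miR-212-3p, measured 756, 659.9 and 671 CPM at 0 h and 5121, 4552 and 5831 CPM at 5 h. That is a 7.43-fold rise (log2 change 2.89, SE 0.12), from rank 43 to rank 13 among the families. With the scaling of the single miRNAs, its summed level gave a log2 ratio of the group means of 2.83, the same as the log2 change of miR-132-3p.

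The GCUACAU family joins miR-222-3p with miR-221-3p and was called (log2 change 0.52, SE 0.12, edgeR adjusted p = 0.0172), although miR-221-3p alone was not. Its level rose from 1792 ± 147 to 2562 ± 103 CPM (SD, n = 3). With the scaling of the single miRNAs the log2 ratio was 0.46, between the values of its members. As with miR-222-3p, this call was lost when any library other than replicate 2 of 0 h was left out of the 6 (adjusted p between 0.0721 and 0.228).

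The families of miR-21-5p and miR-146a-5p also hold a seed mate that was not called. The AGCUUAU family rose by a log2 change of 1.16 (1.09 with the scaling of the single miRNAs), against 1.39 for miR-21-5p alone. Its other member miR-590-5p was at 151 ± 18.8 CPM at 0 h and 131 ± 15.8 at 5 h. The GAGAACU family rose by 0.73 (0.67 with the scaling of the single miRNAs), from 638 ± 41.4 to 1057 ± 34.0 CPM, against 0.88 for miR-146a-5p alone. The remaining 5 called families each had a single member with counts, so they repeat the results of miR-132-5p, miR-212-5p, miR-222-5p, miR-92a-1-5p and miR-4521.

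Arms of the same hairpin share their transcription, and their ratio compares them within a library. A mature arm made by several hairpins, such as miR-92a-3p, entered the ratio of each, so such a ratio does not belong to a single hairpin. The ratio alone does not show why the arms changed by unequal amounts, and the cause was not tested. In 161 precursors both arms were tested, and limma called 0 changes of the ratio (0%), with 11 at an unadjusted p under 0.05. Among the 69 precursors whose rarer arm reached 10 CPM, the changes of the arms had a Pearson correlation of 0.71. Over all 161 it was 0.48. Precursors share libraries and are not independent replicates. The 69 include mir-132 (log2 changes 2.83 and 3.69) and mir-21 (1.39 and 4.15), while most others lie near 0. How far these hairpins set the correlation was not tested. The rarer arm changed more than the common arm in 116 of the 161, and rarer arms have fewer counts and larger errors.

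At mir-21 the rarer arm made up 0.625%, 1.62% and 3.50% of the hairpin's CPM in the 0 h libraries and 10.6%, 11.0% and 11.4% in the 5 h libraries. The shares did not overlap, and the log2 ratio changed by 2.92 (SE 0.60), which limma did not call over all 161 precursors (adjusted p = 0.227). When only precursors with both arms at 10 CPM or more in 3 libraries were tested, it was the 1 ratio called. At mir-222 the 5p share was 11.3%, 5.25% and 10.8% at 0 h and 14.0%, 12.9% and 13.6% at 5 h, with a log2 ratio change of 0.72 (SE 0.42).

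At mir-132 the 5p arm stayed below 3% of the hairpin's CPM throughout, at 0.0790%, 2.07% and 0.651% before and 1.66%, 1.74% and 1.47% after activation. These shares overlapped, and both arms rose in these libraries. miR-92a-1-5p made up 19.5%, 17.5% and 17.2% of its sum with miR-92a-3p at 0 h and 24.02%, 31.5% and 21.96% at 5 h. These shares did not overlap, and limma did not call the ratio (log2 ratio change 0.65, SE 0.30, adjusted p = 0.73). miR-92a-3p is also the common arm of mir-92a-2, whose own 5p arm was tested too. The shares are therefore not those of the mir-92a-1 hairpin alone.

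**Figure D3:**
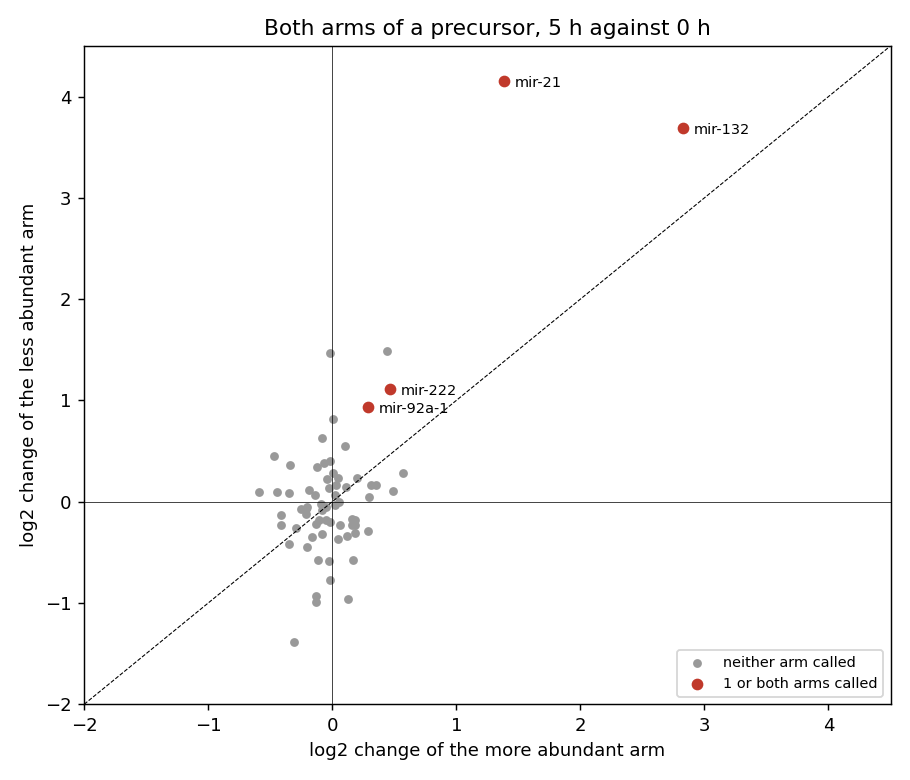
Log2 change at 5 h of the rarer arm against that of the common arm for the 69 precursors whose rarer arm averaged at least 10 CPM; the dashed line marks equal change. Most points cluster near 0, and mir-21 lies above the line at 1.39 and 4.15.

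Most of the abundant miRNAs were not called at 5 h, and their log2 changes were small. The 57 miRNAs at 1000 CPM or more held 96.4% of the counts. Of these, 2 were called (miR-132-3p and miR-222-3p), and for 56 the 95% interval of the log2 change lay within 1 of 0. In 11 of the 57 (19.3%, against 10.8% of all tested) the groups did not overlap. Among miRNAs not called at this level the largest log2 change was 0.44 in size. The 10 most abundant miRNAs together held 68.7% ± 1.05 of the counts at 0 h and 67.6% ± 0.746 at 5 h, a difference of -1.04 percentage points (exact two-sided permutation p = 0.2; 3 against 3 libraries cannot give less than 0.1).

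Precision fell steeply with abundance. Between 100 and 1000 CPM, 83 miRNAs were tested, 5 were called and 91.6% had an interval within 1 of 0, with a median SE of 0.17. Between 10 and 100 CPM, 2 of 151 were called and 41.7% had such an interval. Below 10 CPM, where 338 of the 629 lie, the median SE was 1.79 and none had such an interval. Changes of that size could therefore not be resolved there in these libraries.

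let-7a-5p, the most abundant miRNA, stood at 122392, 141597 and 162323 CPM at 0 h and 126149, 142314 and 129021 CPM at 5 h. The let-7 family represses growth genes such as MYC and RAS. None of its 9 tested members was called, the median log2 change was -0.01, and let-7b-5p had the lowest value (-0.36, SE 0.13, adjusted p = 0.383). With scaling by library totals or upper quartile the family median was above 0 (0.06 and 0.03).

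The miR-181 family, which tunes T cell receptor sensitivity in thymocytes, had negative log2 changes in all 10 tested members, with a median of -0.15. With library totals or upper quartile factors 9 of 10 were negative. Both arms of the same hairpin, such as miR-181a-5p and miR-181a-3p, are among the 10, so the signs are not independent. Rare members such as miR-181b-3p (log2 change -0.50, SE 2.40) carry large errors. None of the 10 was called. miR-181a-5p measured 48268, 41459 and 51556 CPM at 0 h and 41913, 38867 and 41057 CPM at 5 h, with overlapping groups (log2 change -0.21, SE 0.13). In the miR-106b/25 cluster, a relative of miR-17/92a-1 in an intron of MCM7, none of 6 was called; miR-93-5p was at 29151, 24733 and 35754 CPM at 0 h and 23187, 21897 and 22087 CPM at 5 h, without overlap (log2 change -0.42, SE 0.15, edgeR adjusted p = 0.383).

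The miRNAs that other studies reported to rise in activated T cells, a list put together with earlier results of these data known, included 8 of the 11 called. Of its 17 members 14 were tested and 8 were called higher (1.59% of all tested were). In 11 of the 14 the groups did not overlap, with higher values at 5 h (6.52% of all tested did so). Members from the same hairpin or cluster, such as both arms of miR-21, are not independent. The median log2 change was 1.13. miR-182-5p, which targets FOXO1 in helper T cells, measured 1907, 1976 and 1685 CPM at 0 h and 2331, 2291 and 2149 CPM at 5 h (log2 change 0.28, SE 0.12, not called). The hypoxia miRNA miR-210-3p had a log2 change of -0.11 (SE 0.32), and miR-155-3p and miR-31-5p had no count in the 6 libraries.

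The miRNAs reported to fall in activated T cells gave no call at 5 h. Of 16 members 14 were tested, none passed in either direction (0.159% of all tested were called lower), and the median log2 change was -0.03 (0.05 with library totals and 0.02 with upper quartile factors). miR-150-5p, which restrains MYB and marks resting lymphocytes, was at 441, 418 and 417 CPM at 0 h and 429, 351 and 416 CPM at 5 h (log2 change -0.09, 95% interval -0.38 to 0.19). miR-26a-5p (-0.06), miR-29a-3p (0.09), miR-342-3p (-0.02) and miR-223-3p (0.11) likewise had log2 changes near 0. The lowest values were those of miR-30c-5p (-0.42, SE 0.34), miR-101-3p (-0.27, SE 0.29) and miR-181a-5p (-0.21), each with overlapping groups. miR-195-5p, at 31.5, 26.5 and 18.8 CPM against 58.7, 44.9 and 18.9 CPM, had a log2 change of 0.67 (SE 0.38), with replicate 3 of 5 h at the 0 h level.

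Other families and clusters gave no call in either direction. The median log2 change was -0.05 over 8 tested members of the cluster of miR-106a and miR-363, 0.00 over 10 of the miR-15 and miR-16 family, which restrains BCL2 and cyclins, and 0.06 over 7 of the miR-29 family. It was 0.05 over 9 of the miR-30 family, 0.05 over 10 of the clusters of miR-23, miR-27 and miR-24, and -0.13 over 5 of the cluster of miR-183, miR-96 and miR-182. The median was -0.02 over 4 miRNAs linked to p53, hypoxia or growth, and -0.04 over 8 made without Drosha, such as miR-320a-3p (-0.15) and miR-484 (-0.05). Scaling by library totals gave 0.03 for the cluster of miR-106a and miR-363, 0.02 for the p53, hypoxia or growth list and 0.04 for the Drosha list, so the sign of these medians depended on the scaling.

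**Figure D4:**
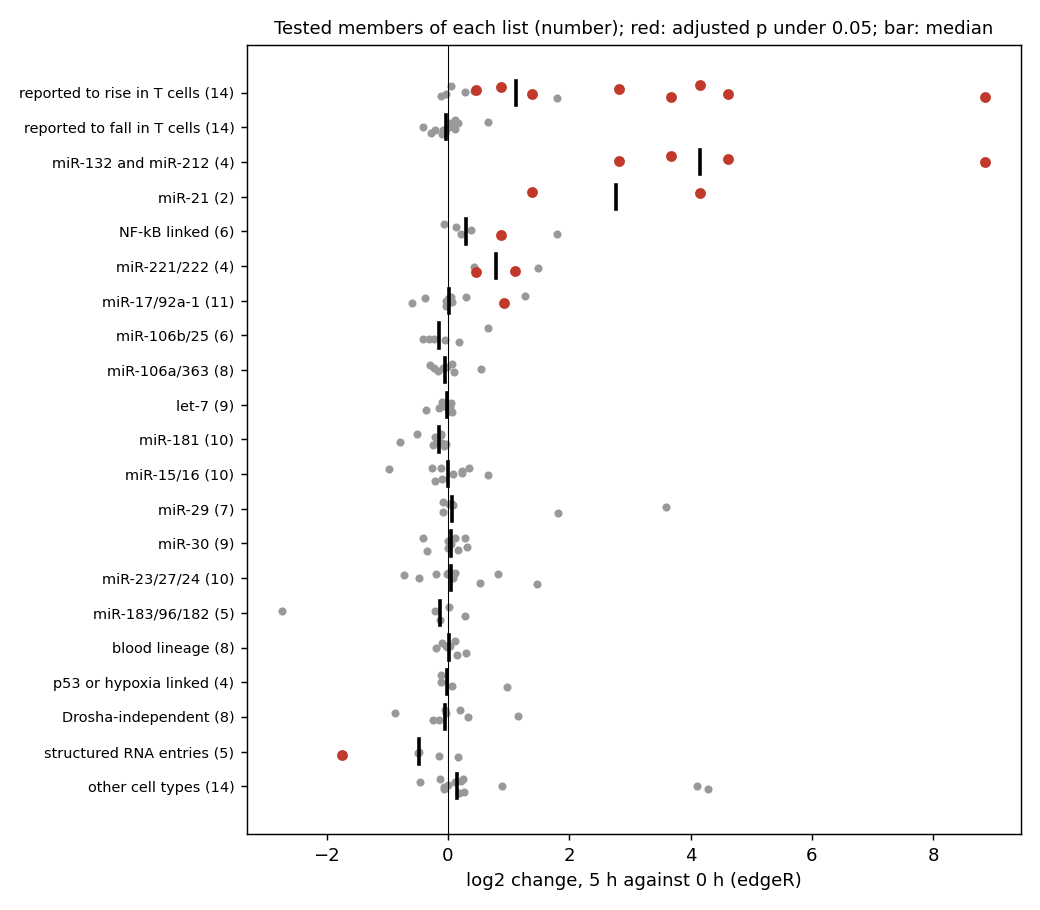
Log2 change at 5 h against 0 h of every tested member of 21 lists of miRNAs, with the number tested in brackets, called members in red and the median as a black bar. The called members sit in the lists holding miR-132 and miR-212, miR-21, miR-146a, miR-222, miR-92a-1 and miR-4521, while most other lists centre near 0.

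The labelled cell type was checked against lineage miRNAs, and the defining blood cell miRNAs were present in every library. miR-142-3p, present throughout the blood lineages, stood at 11696, 12181 and 12683 CPM at 0 h and 14421, 15289 and 15061 CPM at 5 h; its groups did not overlap, but the log2 change of 0.29 (SE 0.10) was not called (edgeR adjusted p = 0.292). miR-342-3p was at about the same level in every library, from 9999 to 10886 CPM. None of the 8 blood lineage miRNAs tested was called, and their median log2 change was 0.01.

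Markers of other cell types were mostly scarce. Of 26 listed, 14 were tested, with a median log2 change of 0.15 and no call. No count was found for 8, among them miR-1-3p, miR-133a-3p and miR-206 of muscle, miR-124-3p of neurons and miR-205-5p of epithelium. Other markers of the same cell types were present. miR-9-5p of neurons, which is not on this list, measured 211 to 251 CPM at 0 h and 285 to 312 CPM at 5 h. miR-200c-3p of epithelium measured 106 to 195 CPM at 0 h and 151 to 198 CPM at 5 h. The summed level of the list was 834 to 1215 CPM at 0 h and 874 to 1257 CPM at 5 h, most of it from miR-128-3p, miR-223-3p and miR-200c-3p. Of these, miR-223-3p is also among the blood lineage miRNAs above, so it is counted in both lists. miR-122-5p, the liver miRNA, had 0, 27 and 14 counts at 0 h and 22, 2 and 1139 counts at 5 h. Its 5 h mean thus came from replicate 3 (104.6 CPM), and without that library its log2 change went from 4.10 (not called, adjusted p = 0.222) to -0.31.

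More miRNAs had a count at 5 h than at 0 h. At the depth of the shallowest of the 6 libraries, 635, 651 and 598 mature miRNAs were expected at 0 h and 677, 669 and 710.0 at 5 h. The groups did not overlap, with a difference of 57.4 (exact two-sided permutation p = 0.1, the smallest possible; the measure was chosen after its values were seen). In all, 743 miRNAs had counts in both groups, 177 only at 5 h and 103 only at 0 h, and those seen in a single group held 0.0112% of the 5 h counts and 0.00716% of the 0 h counts.

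Counts in all 3 libraries of a group and none in the other were found for 4 miRNAs in each direction. Present only at 5 h were miR-212-5p, miR-320a-5p, miR-3617-5p and miR-5580-3p, and present only at 0 h were miR-497-5p, miR-5188, miR-6748-5p and miR-6824-5p. Apart from miR-212-5p their counts were 25 or fewer per library, and the 4 of them that were tested were not called. The smallest bound, for miR-3617-5p, was at least 8.32-fold higher and the largest of those not called, for miR-6824-5p, at least 22.8-fold lower at 5 h, each against 3 counts over the empty group.

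The 12 h libraries show how long the early levels lasted. That comparison uses the same 5 h libraries, so it is not independent of the one above. In it 4 of 629 miRNAs were called (0.636%), 1 higher (0.159%) and 3 lower (0.477%), and all 4 were among the 11 called at 5 h. miR-146a-5p went on rising, from 735 ± 38.2 at 5 h to 1388 ± 168 CPM at 12 h (SD, n = 3; log2 change 0.92, edgeR adjusted p = 0.000194), and miR-4521 went on falling, from 128 ± 12.6 to 47.4 ± 7.96 CPM (log2 change -1.44, edgeR adjusted p = 0.000186).

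miR-92a-1-5p and miR-222-5p were lower again at 12 h. From a mean of 106 ± 20.3 CPM in resting cells, miR-92a-1-5p went to 203 ± 30.1 CPM at 5 h and 71.7 ± 9.93 CPM by 12 h, a log2 change of -1.50 from 5 h to 12 h (edgeR adjusted p = 0.000194). miR-222-5p averaged 113 ± 41.4, 243 ± 20.8 and 106 ± 27.9 CPM at the same times (log2 change -1.20, adjusted p = 0.0253). The major arm miR-222-3p was at 1556 ± 67.0 CPM at 5 h and 1529 ± 125 at 12 h, with no call between them. The 3p share of mir-21 was also lower again at 12 h, at 2.64%, 4.33% and 5.40%, while miR-132-3p stood at 5552 ± 133 CPM, near its 5 h level.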

How the data were processed

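Small RNA of 9 Jurkat libraries was measured, 3 at each of 0 h, 5 h and 12 h. Per the labels' protocols, RNA came from a column kit and libraries from RealSeq kits. The authors deposited raw counts per precursor and mature miRNA and a table of log2 normalised values of the same libraries, used here only in an alternative. The submitters' processing notes name the build GRCh38.p13 and DESeq2. The sources used here do not give the aligner or the counting tool. The same reads may be counted on several precursor rows, so each mature miRNA entered once (165 had several rows).

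Groups and replicate numbers were taken from the labels. Counts were filtered with filterByExpr (minimum count 10, minimum total 15; 629 kept, 469 left out, 99.98% of counts kept), scaled by TMM and fitted with edgeR 4.0.16 (R 4.3.3, glmQLFit and glmQLFTest) over all 9 libraries, with a Benjamini-Hochberg adjusted p under 0.05 as the call. Intervals are 95%. The same fit was run on counts summed by seed, with sequences from RefSeq. Arm ratios were tested with limma 3.58.1 on log2 CPM (prior count 2). Positions are 1-based on GRCh38, with host genes from the GENCODE annotation given. The scripts were tested on simulated counts. Reads carry no molecular identifiers, so floors of 3 counts cover counting error only. No replicate pair agreed within sampling noise (chi-square over degrees of freedom 55.7 or more).

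Named were every called miRNA, its other arm and seed mates, the 10 most abundant, the 5 of at least 10 CPM with the smallest p among those not called, members of 7 lists, up to 4 members of each other list, and those with counts in every library of a single group. Outside this rule, and with their values known, miR-29b-1-5p, miR-17-3p, miR-7-5p, miR-6125 and the cell type markers without counts were added. The members and the 21 lists were chosen with earlier results of these data known. Alternatives were other scalings (RLE, library totals, upper quartile), filters, DESeq2 1.42.0, limma-voom, the 6 libraries alone, the replicate number as a block, every precursor row, the deposited log2 values, and libraries left out.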

Additional observations from a re-analysis of the deposited data

How the results depend on the processing

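Across the alternatives the count of called miRNAs stayed between 9 (deposited log2 values, which lack both arms of miR-212) and 16, and the 11 were called again under RLE, library total and upper quartile factors, no filter (13 called), 10 CPM in 3 libraries, DESeq2 (12), limma-voom, the 6 libraries alone, every precursor row and without the 2 shallowest libraries (12). Leaving out each library in turn gave 10 to 13 miRNAs, 8 to 10 seed families and 0 to 2 arm ratios; the miRNA calls included 9 to 11 of the same 11. In the share of the 10 most abundant miRNAs it gave a difference of -1.64 to -0.666 percentage points, and in mature miRNAs detected at equal depth one of 42.3 to 68.8. The arm ratio count was 1, in place of 0, with 10 CPM in 3 libraries. No direction of a called result reversed. Single calls lost are given beside miR-222-3p, miR-222-5p and miR-92a-1-5p; the cause was not tested. The GGUUGGG family was lost in the same settings as miR-92a-1-5p.

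With the replicate number as a block, 16 miRNAs (11 higher, 5 lower), 13 seed families and 0 arm ratios were called. The 5 added were miR-122-5p, miR-128-2-5p, miR-93-5p, miR-7-5p and miR-6125. Whether libraries with the same number were handled together is not known here. Same-numbered 0 h and 5 h libraries deviated together with correlations of 0.105, -0.107 and 0.121, and not every library correlated best with its own number. With 3 libraries per group these values cannot decide whether the replicates were paired. Leaving out the 2 shallowest libraries for seed families and arm ratios, and detection as counted, were chosen after the data were seen. Under 10 CPM the median SE was 1.79, and the part of depth in this was not tested.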

Other observations

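Some rarer miRNAs had groups apart but no call. miR-29b-3p, the main arm opposite miR-29b-1-5p, had a log2 change of 0.02, but it is also an arm of mir-29b-2 and so does not report on mir-29b-1 alone. miR-29b-1-5p was noticed after its values were seen and measured 0, 2.47 and 0 CPM at 0 h and 17.3, 2.97 and 11.1 CPM at 5 h. Its groups did not overlap, and its log2 change of 3.59 (SE 1.40) was not called in edgeR (adjusted p = 0.561). Without replicate 2 of 0 h, the 1 resting library with counts, it was called in edgeR (adjusted p = 0.0147), against a group with no counts, where the fitted change depends on the prior count. miR-128-2-5p measured 100.1, 62.8 and 98.2 CPM at 0 h and 47.7, 46.8 and 42.7 CPM at 5 h, also without overlap and without a call (log2 change -0.93, SE 0.28). Without replicate 2 of 0 h, the lowest resting library, it was called in edgeR (log2 change -1.12, adjusted p = 0.0494; range over all alternatives 0.0316 to 0.778).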
